A study of Mus musculus with 8 samples.

Results

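The Wnt pathway genes described here are 57 genes listed by symbol, covering secreted Wnt ligands, their receptors, secreted modulators and intracellular effectors. Each symbol was matched exactly to the array annotation, and 56 of the 57 had a probe set carrying that symbol alone, among 19938 genes measured. Tcf7 was not analysed here. Expression was measured with Affymetrix Mouse Gene 1.0 ST arrays in neocortical layers II to IV, cut out by laser from mouse pups at postnatal day 2, with 1 array per pup. The 4 control pups were Bcl11a flox/+;Emx1 IRESCre/+, with 1 floxed allele, and the 4 mutant pups were Bcl11a flox/flox;Emx1 IRESCre/+, with 2. All 8 pups carried Cre recombinase driven from the Emx1 locus, which is active in the cortical progenitors that give rise to projection neurons and most cortical glia. Controls therefore keep 1 intact allele of Bcl11a, a zinc finger transcription factor, where Cre acts, and cells outside this lineage, such as interneurons and vessels, are not targeted.

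Wnt proteins are secreted glycolipoproteins that bind Frizzled receptors together with the co-receptors Lrp5 and Lrp6. In the branch that runs through beta-catenin, receptor binding stops a cytoplasmic complex of Axin and Apc from marking beta-catenin for destruction, and beta-catenin then joins TCF/LEF factors on DNA. R-spondins raise sensitivity to Wnts by holding back the ubiquitin ligases Znrf3 and Rnf43, which remove Frizzleds from the cell surface. In the developing cortex the pathway is known for patterning, progenitor growth, axon and dendrite growth and the ingrowth of brain vessels.

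Of the 56 genes, 5 rose in the mutant layers, 1 fell and 50 did not pass the test. The 5 that rose were the ligand Wnt7b, the receptors Fzd7 and Fzd4, and the R-spondins Rspo2 and Rspo3. The one that fell was Frzb, a secreted antagonist. A gene is said to have risen, fallen or changed where limma's moderated test gave a Benjamini-Hochberg adjusted p under 0.05 over all 19938 genes. These 6 of 56 are 10.7% of the Wnt genes, while 4.15% of all genes changed (2.36% rose and 1.79% fell). The share over all genes includes dim genes, as none were filtered out. Without the dimmest 30% of genes, 7 of 50 Wnt genes changed, against 6.36% of all genes. Without the dimmest 50%, 7 of 29 changed, against 8.89%. The median difference was 0.03 over the 56 genes and 0.02 over all genes, and the median size of a difference was 0.10 and 0.07. Every difference is a log2 value, the mutant mean less the control mean, with the model's standard error (SE). Control and mutant values did not overlap for 9 of the 56 genes, 7 of them higher in the mutant, against 9.25% of all genes.

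**Figure D1:**
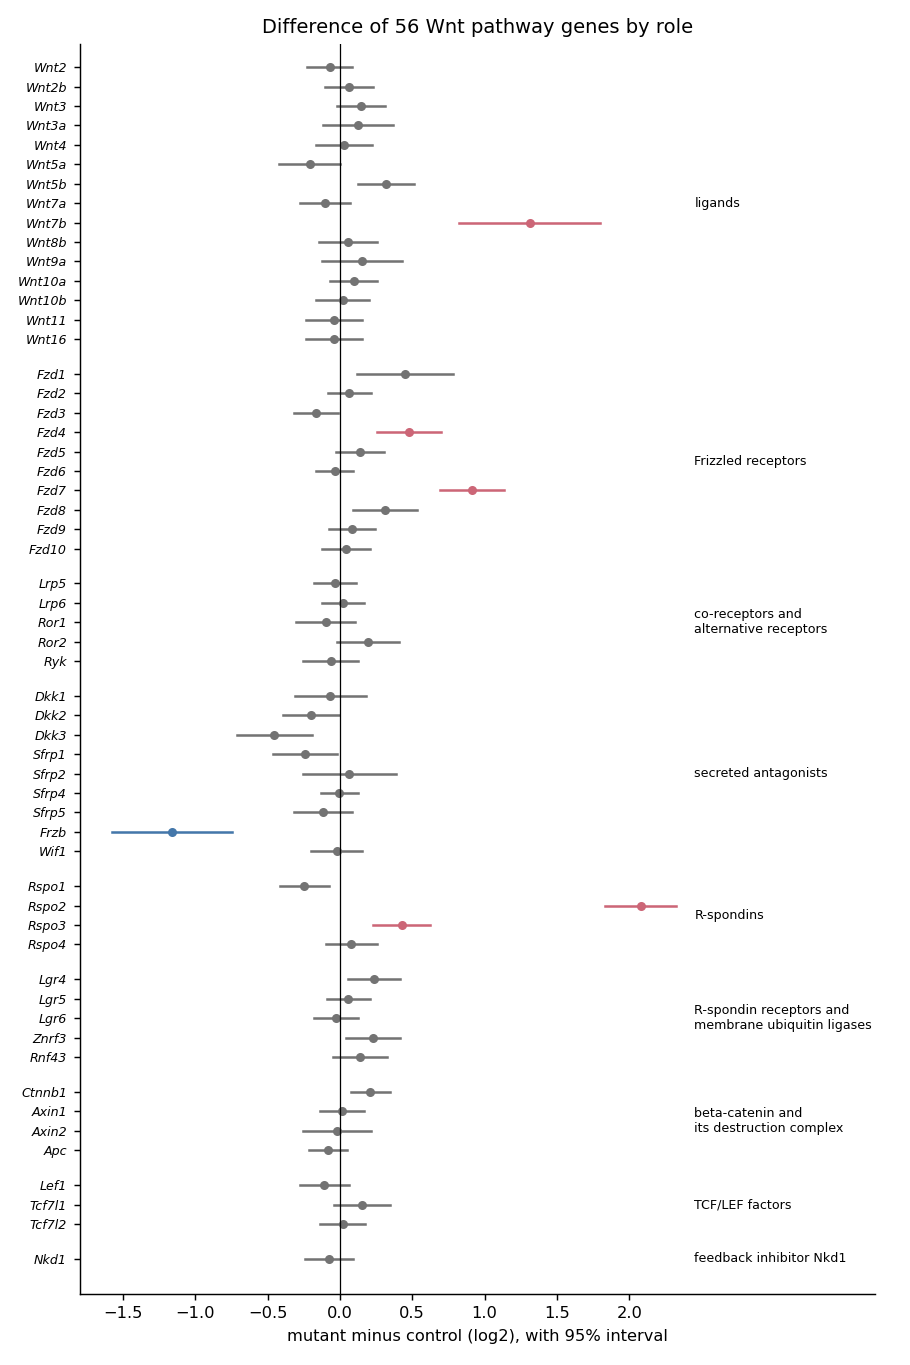
Mutant minus control difference (log2, points) with its 95% interval (lines) for the 56 Wnt pathway genes, grouped by role; red marks genes that rose, blue the gene that fell and grey those that did not pass. Rspo2 lies farthest to the right at 2.08 and Frzb farthest to the left at -1.16, while most others lie near 0.

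Array medians lay between 4.83 and 4.91, and correlations across genes, which are not independent replicates, were 0.991 to 0.997 between any pair of arrays. Control 1 stood apart, with an array weight of 0.556 against 0.794 to 1.33 for the other arrays. Its position on the second principal component was 16.59 against -10.88 to 7.75. It was the extreme control for Wnt7b, Frzb and Cxxc4, and also for some cell type markers. Of the deep-layer markers it was lowest for Ldb2 (8.29 against 9.58 to 9.74) and Sox5 (7.45 against 8.35 to 8.60). It was highest for deep-layer Fezf2 (7.05 against 6.60 to 6.72) and interneuron Npy (9.27 against 8.49 to 8.67). Bcl11a itself read 10.34 to 10.59 in controls and 8.37 to 8.85 in mutants, a log2 difference of -1.82 (adjusted p = 4.9e-07), though the position of its probe set relative to the floxed exon was not analysed here. All 9 measured upper-layer genes read above the empirical floor of 4.31, which is the highest value that 3 genes of the Y chromosome gave in the 3 Xist-high arrays and marks where a reading may be background. In 5 of 8 measured genes of the cortical hem and choroid plexus, a known source of Wnts, both group means lay at or below it, Ttr, Otx2, Kl, Clic6 and Kcne2. Ttr, the main secreted product of choroid plexus, read 5.51 in mutant 4 and 3.47 to 3.86 in the other arrays, and all 6 genes that changed also passed without mutant 4. The summed levels (log2 of summed intensities) of 4 marker lists did not overlap between genotypes. The upper-layer list spanned 12.49 to 12.61 in controls and 12.21 to 12.43 in mutants, with 5 of 9 genes fallen and 3 with differences above 0, among them Unc5d at 0.46. The deep-layer list spanned 10.87 to 11.47 and 11.75 to 12.05, with 9 of 10 genes above 0 and a median difference of 0.17. Of these 10, 1 passed, Ldb2 (log2 difference 1.38), and Fezf2 was next at 0.80 without passing. Bcl11b differed by 0.05 and Foxp2, the 1 gene below 0, by -0.02. The interneuron list spanned 10.85 to 11.01 and 10.36 to 10.46, with 2 of 10 genes fallen, Npy (-1.63) and Dlx1 (-0.46), and 7 of the other 8 below 0 without passing. The subplate list spanned 7.86 to 8.79 in controls and 7.44 to 7.62 in mutants, with 1 of 6 genes fallen, Nr4a2 (-2.15), and the other 5 at -0.25 to 0.08. The lists for astrocytes, vessels and meninges overlapped, with meninges at 9.01 to 9.48 in controls and 8.69 to 9.14 in mutants. The part of these shifts in the results below was not tested, and in tissue samples fewer cells of a type and less RNA per cell cannot be told apart.

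Rspo2, a secreted R-spondin, had the largest change of the pathway and the 4th largest of 470 rises on the array. Its log2 intensity was 5.98, 5.90, 5.95 and 5.69 in controls 1 to 4 and 7.97, 8.30, 7.89 and 7.69 in mutants 1 to 4. The lowest mutant thus stood well above the highest control, and the gap between the groups was several times the spread within either. The mean went from 5.88 ± 0.13 to 7.96 ± 0.25 (SD, n = 4), a 4.22-fold rise with a 95% interval of 3.57 to 5.0 (log2 difference 2.08, SE 0.11, adjusted p = 4.69e-07 by limma).

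Rspo3, a close relative that acts through the same receptors, also rose, but by less. It read 6.04, 6.16, 5.91 and 6.16 in controls and 6.71, 6.48, 6.30 and 6.48 in mutants. The groups were separate, with mutant 3 closest to the controls. The mean went from 6.06 ± 0.12 to 6.49 ± 0.17 (SD, n = 4), a 1.34-fold rise with an interval of 1.17 to 1.54 (log2 difference 0.43, SE 0.09, adjusted p = 0.0149 by limma). Without control 3 the difference was 0.37 and the adjusted p was 0.0507, so the call rests in part on that array.

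The other two R-spondins did not pass. Rspo1 read 5.39, 5.21, 5.13 and 5.37 in controls and 4.89, 5.05, 5.12 and 5.05 in mutants, all 4 mutants lower by a narrow margin (log2 difference -0.25, SE 0.08, adjusted p = 0.120 by limma). Rspo4 overlapped, with 4.31 to 4.58 in controls and 4.38 to 4.66 in mutants. The 4 genes of this family therefore had differences of both signs.

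None of the 5 genes for R-spondin receptors and their target ligases passed, though 2 of them had an unadjusted p under 0.05. Lgr4, a seven-pass receptor of R-spondins, read 6.18, 6.23, 6.45 and 6.43 in controls and 6.58, 6.43, 6.52 and 6.70 in mutants. Only mutant 2 fell within the control range (log2 difference 0.24, adjusted p = 0.174 by limma). Znrf3, a ligase that clears Frizzleds from the membrane and is itself induced by the pathway, read 6.29, 6.42, 6.60 and 6.72 in controls and a tight 6.74, 6.77, 6.70 and 6.74 in mutants. Its control values were widely spread and the highest overlapped the mutants (0.23, adjusted p = 0.215). Lgr5 and Rnf43 had both group means at or below the floor, so no difference could be read for them, and Lgr6 differed by -0.03.

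**Figure D2:**
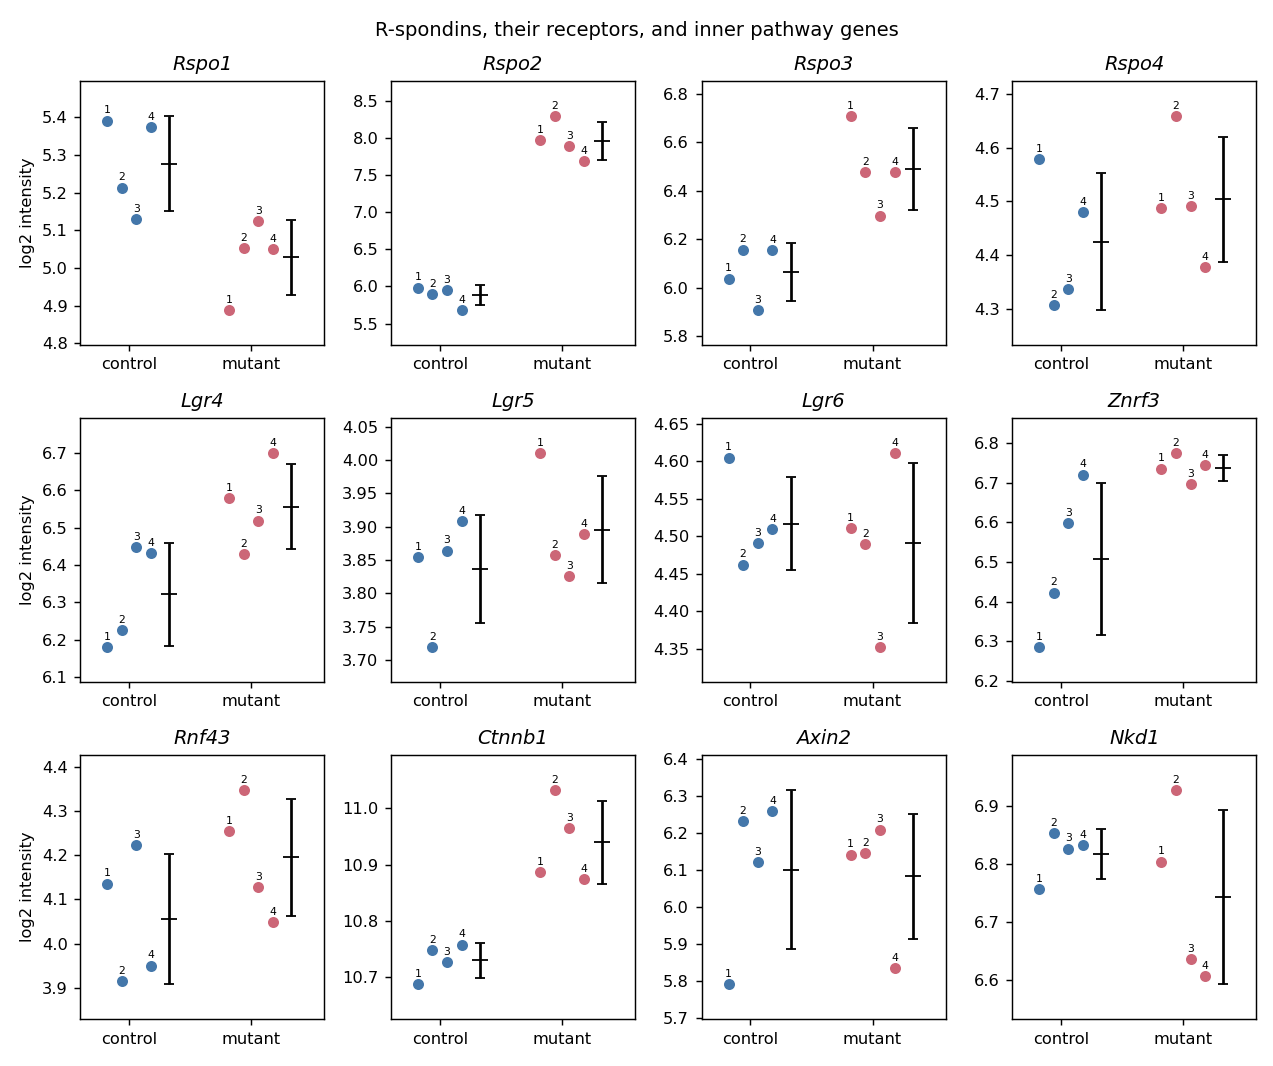
Log2 intensity in each array (points, numbered by replicate; bars are mean ± SD, n = 4) for the R-spondins, their receptors and ligases, and 3 inner pathway genes; each panel has its own axis range, so heights are not comparable between panels. Rspo2 moves by about 2.08 between groups, while Axin2 and Nkd1 overlap.

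Wnt7b was the single ligand of 15 that rose. It encodes a Wnt of cortical neurons and progenitors that, with Wnt7a, is known to drive the growth of brain vessels. It read 6.33, 7.67, 7.42 and 7.52 in controls and 8.35, 8.81, 8.53 and 8.50 in mutants. The mutants lay close together, while control 1 lay more than 1 unit below the other controls. The mean went from 7.24 ± 0.61 to 8.55 ± 0.19 (SD, n = 4), a 2.48-fold rise with an interval of 1.77 to 3.48 (log2 difference 1.31, SE 0.23, adjusted p = 0.00366 by limma). Without control 1 the difference was 1.01 and the adjusted p was 6.18e-05. The call was lost with an intensity trend and robust variances (adjusted p = 0.0697) and without variance moderation (0.157). It ranked 14th of the 470 rises by size. The summed deep-layer marker level was also higher in every mutant than in every control, and its part in this rise was not tested. Of its 10 genes, 9 had differences above 0 and 1, Ldb2, passed.

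The other 14 ligands did not pass. Wnt5b, which acts mainly outside the beta-catenin branch, came nearest, with 5.53, 5.39, 5.37 and 5.39 in controls and 5.66, 6.02, 5.58 and 5.68 in mutants. All 4 mutants were higher, the lowest by a narrow margin (log2 difference 0.32, SE 0.09, adjusted p = 0.0739 by limma). The related Wnt5a had the lowest difference of the ligands, -0.21 (adjusted p = 0.366), with overlapping values. Wnt7a, the closest relative of Wnt7b, read 5.16 to 5.43 in controls and 5.02 to 5.28 in mutants, a difference of -0.10 with an interval of -0.27 to 0.07. Whether Wnt7a and Wnt7b differ in their response was not tested. Wnt3, Wnt3a, Wnt9a and Wnt10a had differences of 0.10 to 0.15 and Wnt10b, Wnt11 and Wnt16 of -0.04 to 0.02, none of which passed. Wnt4, the only one of the 56 genes with 2 usable probe sets, differed by 0.03 and 0.17 on them. For Wnt2, Wnt2b and Wnt8b both group means lay at or below the floor.

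Among the 10 Frizzled receptors 2 rose, 0 fell and 8 did not pass. Fzd7, a seven-pass receptor of the beta-catenin branch, read 5.53, 5.90, 5.53 and 5.49 in controls and 6.37, 6.72, 6.60 and 6.42 in mutants. Every mutant was higher than control 2, itself the highest control. The mean went from 5.61 ± 0.19 to 6.53 ± 0.16 (SD, n = 4), a 1.89-fold rise with an interval of 1.62 to 2.20 (log2 difference 0.92, SE 0.10, adjusted p = 1.42e-04 by limma).

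Fzd4, which in vessels also serves as the receptor of the non-Wnt ligand Norrin, read 4.53, 4.71, 4.98 and 4.70 in controls and 5.23, 5.44, 5.11 and 5.05 in mutants. The groups were separate, by a small gap between control 3 and mutant 4. The mean went from 4.73 ± 0.19 to 5.21 ± 0.17 (SD, n = 4), a 1.39-fold rise with an interval of 1.19 to 1.62 (log2 difference 0.48, SE 0.10, adjusted p = 0.0175 by limma). The call was lost without control 2 (adjusted p = 0.0502), without mutant 2 (0.0624), and without variance moderation (0.190). None of the 10 measured endothelial and pericyte markers passed, and their summed level was 10.33 to 10.44 in controls and 10.25 to 10.41 in mutants. Of these 10, 8 had differences below 0, and the receptors Kdr (-0.27, adjusted p = 0.0822 by limma) and Flt1 (-0.23, adjusted p = 0.123) were lower in every mutant than in every control.

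Of the other Frizzleds, 6 had differences above 0 and 2 below. Fzd1 read 6.07, 6.61, 6.49 and 6.58 in controls and 7.27, 6.90, 6.92 and 6.45 in mutants, so that mutant 4 lay among the controls (log2 difference 0.45, adjusted p = 0.158 by limma). Fzd8 read 6.99, 7.35, 7.09 and 6.90 in controls and 7.43, 7.59, 7.23 and 7.34 in mutants (0.31, adjusted p = 0.134). The groups overlapped through mutant 4 in Fzd1 and through control 2 in Fzd8. Fzd3, known for its part in axon tract formation, had a difference of -0.17 (adjusted p = 0.313), and Fzd2, Fzd5, Fzd6, Fzd9 and Fzd10 had differences of -0.04 to 0.14.

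None of the 5 co-receptors and alternative receptors passed. Ror2, a receptor tyrosine kinase of Wnt5a, had the largest difference, with 6.18, 5.74, 5.72 and 5.91 in controls and 6.17, 6.17, 6.07 and 5.93 in mutants. The groups overlapped through control 1 (log2 difference 0.19, adjusted p = 0.434 by limma). For Lrp6 the difference was 0.02 with an interval of -0.13 to 0.17, and for Lrp5 it was -0.03 with an interval of -0.18 to 0.11. Ror1 and Ryk, which like Ror2 bind Wnts without Lrp5 or Lrp6, had differences of -0.10 and -0.06.

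Of the 9 secreted antagonists, Frzb fell and 8 did not pass. Frzb, a decoy whose Frizzled-like domain binds Wnts outside the cell, read 6.08, 6.78, 7.12 and 7.12 in controls and 5.34, 5.57, 5.88 and 5.67 in mutants. Every mutant was lower than every control, and control 1 was the control nearest to the mutants. The mean went from 6.77 ± 0.49 to 5.61 ± 0.22 (SD, n = 4), a 2.24-fold fall with an interval of 1.68 to 2.98 (log2 difference -1.16, SE 0.19, adjusted p = 0.00276 by limma). Without control 1 the difference was -1.39 (adjusted p = 1.71e-05), and without variance moderation the call was lost (0.141). It ranked 23rd of 357 falls by size. The summed upper-layer, interneuron and subplate marker levels, in which 5 of 9, 2 of 10 and 1 of 6 genes fell, were also lower in every mutant, and their part in this fall was not tested.

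The remaining antagonists had differences of -0.45 to 0.06, 7 of the 8 below 0. Dkk3, a divergent member of the Dickkopf family, lay just beyond the threshold. It read 7.16, 7.15, 6.69 and 7.06 in controls and 6.74, 6.75, 6.40 and 6.35 in mutants, and control 3 alone lay within the mutant range (log2 difference -0.45, SE 0.12, adjusted p = 0.0519 by limma). Under 10 of 19 alternative settings Dkk3 passed. Sfrp1, a secreted Frizzled-related protein of cortical progenitors, read 8.54, 8.53, 8.32 and 8.13 in controls and 8.06, 8.38, 8.08 and 8.04 in mutants (-0.24, adjusted p = 0.301). Dkk1 and Dkk2, which block Lrp5 and Lrp6, had differences of -0.07 and -0.20, Sfrp2 of 0.06 and Sfrp5 of -0.12. For Sfrp4 and Wif1 both group means lay at or below the floor. For Sfrp5 the mutant mean (4.23) lay below it and the control mean (4.35) just above.

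**Figure D3:**
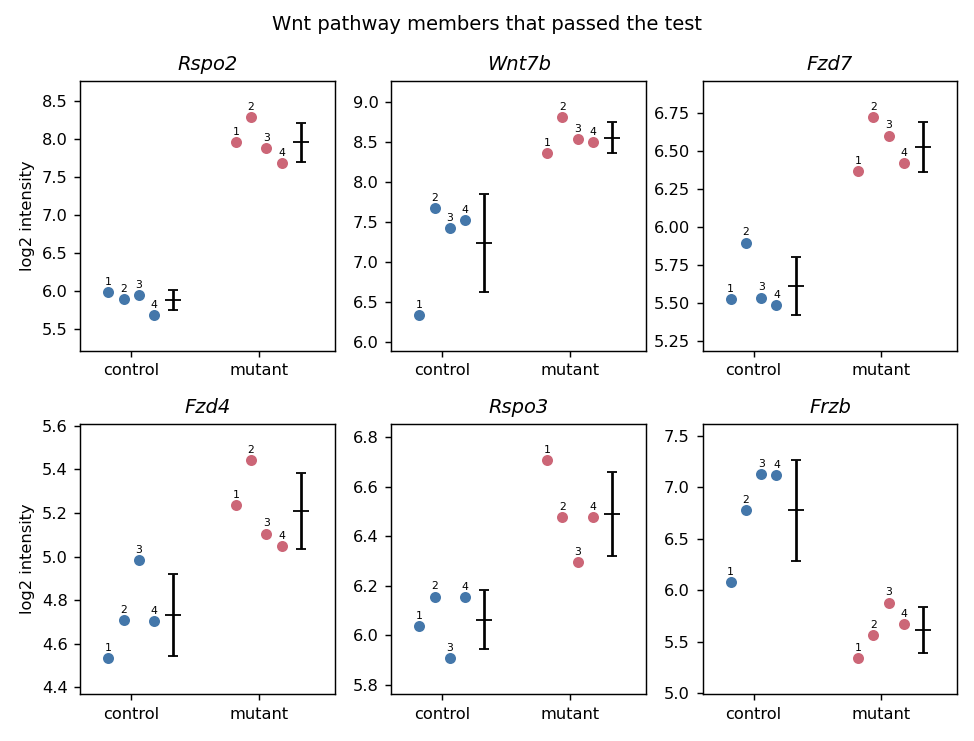
Log2 intensity in each array for the 6 Wnt pathway genes that passed the test (points, numbered by replicate; bars are mean ± SD, n = 4), each panel with its own axis range. Groups are separate in all 6 panels, and control 1 is the lowest control for both Wnt7b (6.33) and Frzb (6.08).

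Upstream sequence was held for 3 of the 6 genes that changed, Fzd7, Fzd4 and Frzb, and is shown because these are receptors and an antagonist that moved in the same tissue. The sequences are the 250 bases before each gene's start in RefSeq (GRCm38.p6), written along the gene's own strand. They lie at chr1:59481897-59482146 (plus strand) for Fzd7, chr7:89404116-89404365 (plus strand) for Fzd4 and chr2:80447397-80447646 (minus strand) for Frzb. Capitals mark matches, on either strand, to the TCF/LEF motif (CTTTGAA or CTTTGAT or CTTTGTA or CTTTGTT) or to the BCL11A motif (TGACCA).
Fzd7: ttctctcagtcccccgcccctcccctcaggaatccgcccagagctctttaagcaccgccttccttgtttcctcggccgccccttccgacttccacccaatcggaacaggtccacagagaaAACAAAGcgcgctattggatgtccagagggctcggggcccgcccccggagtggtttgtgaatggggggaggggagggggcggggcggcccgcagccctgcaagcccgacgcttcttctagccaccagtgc
Fzd4: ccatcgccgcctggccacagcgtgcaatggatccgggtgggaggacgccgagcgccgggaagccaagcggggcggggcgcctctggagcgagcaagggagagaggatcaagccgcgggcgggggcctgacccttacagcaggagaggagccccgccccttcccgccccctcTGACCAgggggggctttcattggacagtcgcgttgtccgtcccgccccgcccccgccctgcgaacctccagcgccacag
Frzb: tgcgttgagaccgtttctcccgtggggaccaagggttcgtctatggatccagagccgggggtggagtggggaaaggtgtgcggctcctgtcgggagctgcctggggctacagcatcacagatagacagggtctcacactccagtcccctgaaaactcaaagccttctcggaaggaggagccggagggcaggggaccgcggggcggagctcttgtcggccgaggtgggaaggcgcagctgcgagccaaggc

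The Fzd7 window held 1 TCF/LEF match, read as AACAAAG along the gene and beginning 130 bases before the start. The Fzd4 window held 1 BCL11A match, TGACCA, beginning 79 bases before the start, and the Frzb window held neither motif. Each of these windows held at most 1 match, so no matches overlapped. Among 47 windows of 38 of the 56 Wnt genes, 6 (12.8%) held the TCF/LEF motif and 6 (12.8%) the BCL11A motif, against 14.8% and 11.4% of 32851 windows of the same length over all genes. GC content was 65.2% for Fzd7, 72.8% for Fzd4 and 64.4% for Frzb, against a median of 52.4% over all windows. Windows of Wnt genes that did not pass ranged from 40.8% (Tcf7l2) to 87.6% (Wnt3a). High GC content was therefore not particular to the genes that changed. A match describes letters in this window and is not a measured binding site.

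None of beta-catenin, its destruction complex, the TCF/LEF factors or Nkd1 passed, and their differences were -0.11 to 0.21. Some other genes that act inside the cell, among them Cxxc4 and Tle1, did change and are described below. Ctnnb1, which encodes beta-catenin, read 10.69, 10.75, 10.73 and 10.76 in controls and 10.89, 11.03, 10.97 and 10.87 in mutants. The groups were separate but the gap was small, 1.16-fold between means (log2 difference 0.21, SE 0.06, adjusted p = 0.0936 by limma), and with an intensity trend and robust variances it passed (0.0254). Axin1 and Apc, scaffolds of the destruction complex, had differences of 0.01 and -0.08.

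Axin2, the feedback scaffold that beta-catenin and TCF/LEF factors induce and a common readout of the pathway, read 5.79, 6.23, 6.12 and 6.26 in controls and 6.14, 6.15, 6.21 and 5.83 in mutants. The groups overlapped almost fully (log2 difference -0.02, interval -0.25 to 0.22, adjusted p = 0.973 by limma), and the sign turned without control 2, control 4 or mutant 4. Nkd1, another feedback inhibitor that binds Dishevelled, read 6.76, 6.85, 6.83 and 6.83 in controls and 6.80, 6.93, 6.63 and 6.61 in mutants (-0.07, interval -0.24 to 0.09, adjusted p = 0.777). These intervals bound the change in either gene but do not show that it was absent. Of the TCF/LEF factors, Tcf7l1 read 5.26, 5.34, 5.24 and 5.52 in controls and 5.54, 5.68, 5.44 and 5.30 in mutants (0.15, adjusted p = 0.508). Lef1 and Tcf7l2 had differences of -0.11 and 0.02.

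Beyond these genes, 89 others of the pathway were listed from general knowledge, with earlier results of these data known, and 88 were measured. Of these, 3 rose, 6 fell and 79 did not pass, 10.2% against the 4.15% of all genes. The list is not independent of these data. None of the 88 had both group means at or below the floor, against 6121 of all 19938 genes. Without the dimmest 30% of genes the share over all genes was 6.36%, and 3 of the listed genes rose and 6 fell. Without the dimmest 50% that share was 8.89%, and of the listed genes still tested 3 rose and 5 fell. That filter left out Adamts5 and Emx2, among others, so the 3 that rose are not the same 3. Fewer than 88 listed genes were tested there, so these counts are not shares of 88. The median difference of the 88 genes was 0.04, against 0.02 over all genes. The genes that changed belong to different steps of the pathway.

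Among genes for making and handling Wnts outside the cell, 2 of 15 fell and 13 did not pass. Wls, the cargo receptor that carries Wnts to the cell surface, read 6.07, 6.30, 6.40 and 6.30 in controls and 5.81, 5.74, 5.67 and 5.76 in mutants. All mutants were lower, with a 1.44-fold fall between means (log2 difference -0.52, SE 0.08, adjusted p = 0.00111 by limma). Draxin, a secreted axon repellent that also antagonises Wnts, differed by -0.32 (adjusted p = 0.0360). Porcn, which attaches the lipid that Wnts need, had a difference of 0.06, and Reck and Adgra2, through which vessels sense Wnt7a and Wnt7b, of 0.15 and 0.12.

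Among cytoplasmic transducers and inhibitors 1 of 26 rose, 1 fell and 24 did not pass. Cxxc4, a CXXC zinc finger protein that binds Dishevelled and dampens the pathway, read 8.07, 7.36, 7.22 and 7.05 in controls and 6.52, 6.30, 6.15 and 6.33 in mutants. The groups were separate although the controls were spread, with control 1 highest, and the mean fell 2.14-fold (log2 difference -1.10, SE 0.17, adjusted p = 0.00184 by limma). Its relative Cxxc5 read 6.75, 7.10, 6.95 and 7.01 in controls and 7.33, 7.32, 7.35 and 7.13 in mutants, a rise of 0.33 (adjusted p = 0.0436). Dvl1, a Dishevelled, and Gsk3b, the kinase that marks beta-catenin, had differences of 0.08 and -0.12.

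Among nuclear co-factors 1 of 12 rose, 1 fell and 10 did not pass. Tle1, a Groucho-type co-repressor that TCF/LEF factors recruit, read 7.45, 7.23, 7.19 and 7.12 in controls and 6.62, 6.73, 6.62 and 6.67 in mutants, a 1.5-fold fall (log2 difference -0.59, SE 0.08, adjusted p = 4.58e-04 by limma). Pygo1, a partner of beta-catenin in transcription, rose by 0.29 (adjusted p = 0.0299). Prickle2 was the one planar cell polarity gene of 16 that changed, falling by 0.38 on the log2 scale (adjusted p = 0.0185).

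Of 19 measured genes listed as common transcriptional targets, 1 rose, 1 fell and 17 did not pass. Adamts5, a secreted metalloprotease, rose by 0.38 (adjusted p = 0.0256) from a level near the floor, 4.25 to 4.56 in controls and 4.65 to 4.97 in mutants. Emx2, a homeodomain factor of cortical areal patterning that was also listed as a progenitor marker, read 5.57, 5.55, 5.65 and 5.52 in controls and 5.06, 5.07, 5.19 and 5.31 in mutants, a fall of 0.42 on the log2 scale (adjusted p = 0.00341 by limma). Ccnd1, Bambi and Sp5, often used as readouts, had differences of 0.18, 0.15 and 0.02 and did not pass. The calls of Cxxc5, Pygo1, Adamts5 and Draxin were each lost with inferred sex as a covariate and without control 1, control 3, mutant 1 or mutant 2 (adjusted p = 0.0534 to 0.129 by limma). Some were also lost without control 2 (Draxin), control 4 (Adamts5 and Cxxc5), mutant 3 (Cxxc5 and Pygo1) or mutant 4 (Pygo1 and Draxin). That of Prickle2 was lost without control 2, control 4, mutant 1 or mutant 2 (adjusted p = 0.0583 to 0.0710 by limma). Without variance moderation the calls of these 5 genes and of Cxxc4 were lost (adjusted p = 0.104 to 0.202), and with array medians subtracted those of Cxxc5 (0.0903) and Pygo1 (0.0724).

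**Figure D4:**
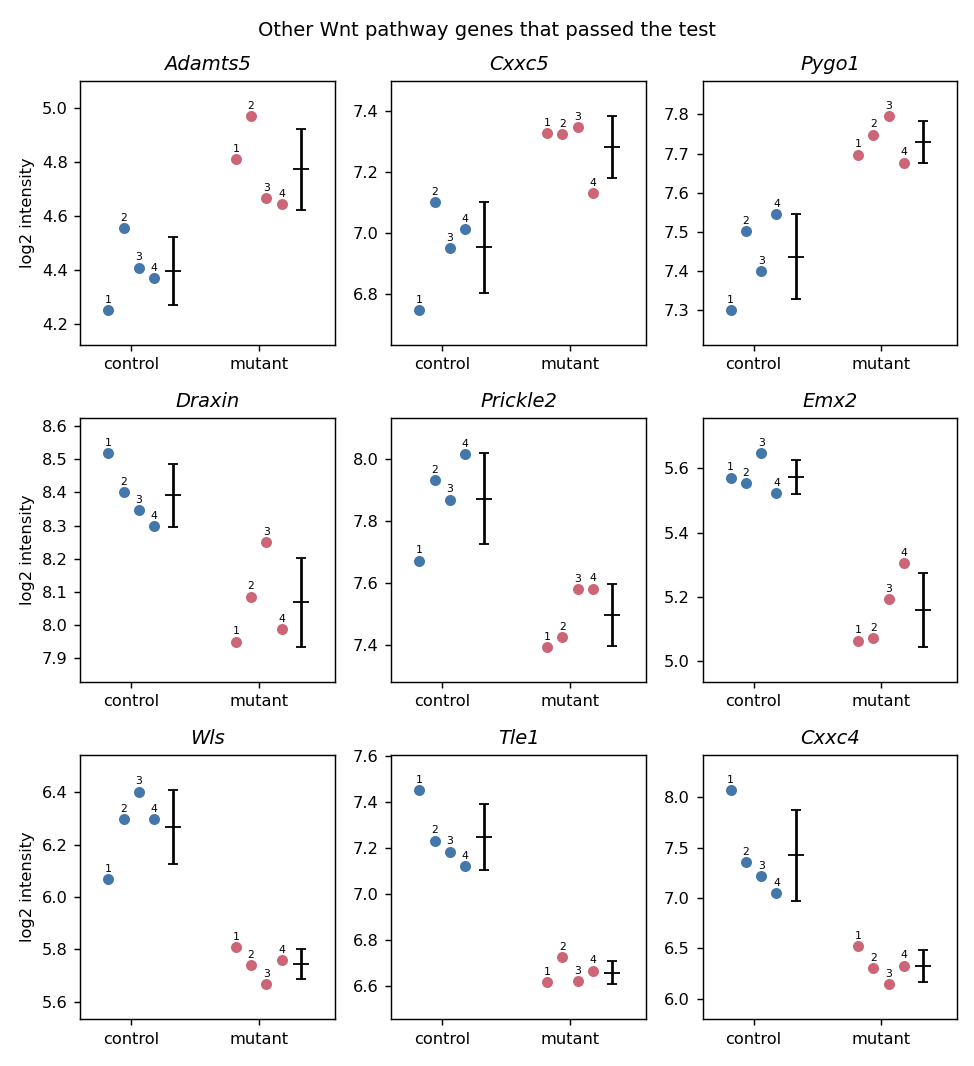
Log2 intensity in each array for the 9 other Wnt pathway genes that passed the test (points, numbered by replicate; bars are mean ± SD, n = 4), each panel with its own axis range. Cxxc4 has the largest difference, -1.10, and Pygo1 the smallest, 0.29.

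The 6 changed Wnt genes differed in how far they stood from the threshold under other ways of processing. Rspo2 and Fzd7 passed under all 19 alternatives, with adjusted p at most 0.00954 and 0.0380. Frzb passed under 18, Wnt7b and Rspo3 under 17 each, and Fzd4 under 15 of the 18 in which it was tested. Outside these alternatives, the test was also run over all 35556 probe sets. There the calls of Rspo3 (adjusted p = 0.080 by limma) and Fzd4 (0.0995) were lost. Those of Wnt7b (0.046), Frzb (0.037), Fzd7 (0.0042) and Rspo2 (1.0e-04) were kept. The exact two-sided permutation p over the 70 ways to split 8 arrays was 0.0286 for each of the 6 genes, the smallest that 4 against 4 can give. Groups that do not overlap always give this value, so it adds nothing to their separation. Rspo1, Wnt5b and Ctnnb1, which did not pass, had it too.

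**Figure D5:**
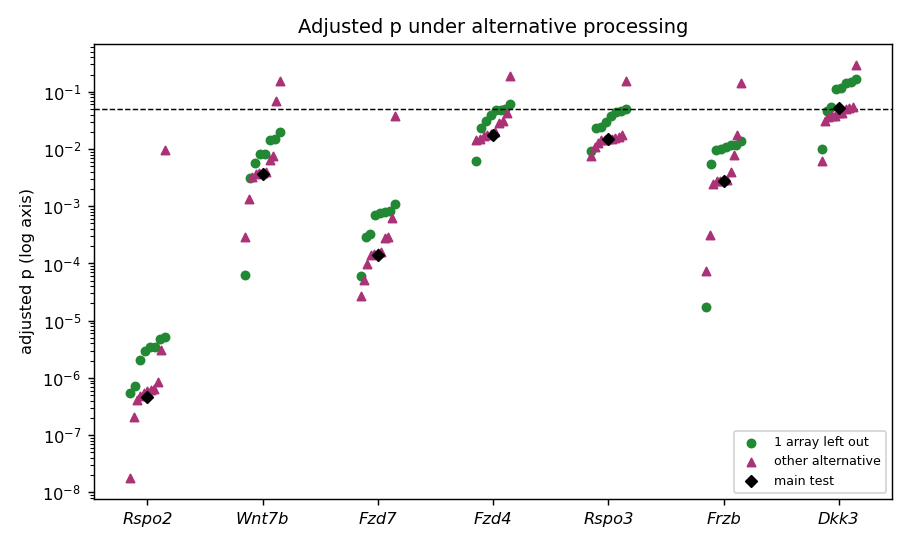
Adjusted p (log axis) of the 6 changed genes and Dkk3 under the main test (diamonds), with 1 array left out (circles) and under the other alternatives (triangles); the dashed line is the threshold of 0.05. Rspo2 and Fzd7 stay below the line throughout, while Dkk3 straddles it, at 0.0519 in the main test.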

How the data were processed

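RNA from 8 pups was hybridised to 1 array each. The values are the authors' deposited log2 expression values per probe set. Per the labels, BRB-ArrayTools was used; for background correction, normalization, summarisation and log base, no statement is given in the sources used here. The values, 2.03 to 13.8, were taken as log2 and already normalized; with another base the fold changes would differ. Of 35556 probe sets, 21789 carried 1 gene symbol, 1621 several and 12146 none. One-symbol probe sets were kept, the brightest per gene over 8 arrays, giving 19938 genes with no filter on dim ones.

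The genotypes were fitted by limma 3.58.1 under R 4.3.3 (genotype alone, moderated two-sided test, Benjamini-Hochberg over all genes); the median SE was 0.0766, and the number of arrays limits the precision. On simulated data for these 19938 genes it recovered 61 of 67 genes changed by 0.5 (log2), 67 of 67 by 1 and 66 of 66 by 2, with 7.62% false calls.

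The members and lists were chosen with earlier results of these data known. Named with values in each array are members that passed, members whose groups did not overlap, and the member with the largest difference per role, plus up to 5 other pathway genes that passed in each direction. Dkk3, Fzd8, Fzd1, Sfrp1, Znrf3, Axin2 and Draxin, and other members given by their difference alone, were named after their values were seen. Alternatives covered normalization, dim-gene filters, probe set choice, array weights, variance estimation, replicate block, inferred sex and leaving out each array.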

Additional observations from a re-analysis of the deposited data

Results flagged for a closer look

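In 4 of the 58 groups of 4 arrays examined, 1 array stood apart from the other 3 by more than Dixon's 95% limit, which chance exceeds in about 1 in 20 groups. Wnt5b read 5.53 in control 1, against 5.37 to 5.39 in the other controls. Fzd7 read 5.90 in control 2, against 5.49 to 5.53, which brings that control nearer to the mutants. Sfrp1 read 8.38 in mutant 2, against 8.04 to 8.08 in the other mutants. Cxxc5 read 7.13 in mutant 4, against 7.32 to 7.35.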

How the results depend on the processing

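Over 29 genes and up to 19 alternatives each, 480 of 546 values kept their direction and side of the threshold, 47 lost the call, 16 gained it and 3 turned sign, the last all for Axin2 with 1 array left out (-0.12 to 0.065). Without variance moderation the risen members numbered 2, the fallen members 0, the other pathway genes 0 risen and 3 fallen, and all changed genes 249; the cause was not tested. The fallen members numbered 2, by the gain of Dkk3, with quantile normalization, array medians subtracted, the dimmest 30% or 50% of genes left out, array weights, an intensity trend with robust variances, the replicate block and inferred sex. The other pathway genes that rose numbered 1 with array medians subtracted and 0 with inferred sex. Leaving out 1 array gave 4 to 6 risen and 1 to 2 fallen members, 0 to 4 risen and 4 to 6 fallen other pathway genes, and 584 to 814 changed genes. The labels do not say what a replicate number shares, so the main test did not take the numbers as pairs. Deviations of arrays numbered 1 to 4 correlated at 0.109, 0.0558, 0.295 and 0.149. The best partner had the same number for replicates 1, 3 and 4 and not for 2. Whether the numbers mark pairs could not be decided from so few arrays. With the replicate block 6 members rose and 2 fell, by the gain of Fzd8 and Dkk3, and 987 genes changed against 827. The fallen count of members is 1 gene, so a single gain moves it. Readings near the floor of 4.31 limit what the dim genes can show, and 7 of the 56 members lay at or below it in both groups.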
